A study of Mus musculus with 21 samples.

Results

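Oncostatin M and osteopontin are 2 secreted factors whose messages, Osm and Spp1, were followed through all 21 RNA-seq libraries of a study on JAK2 inhibitors. They were chosen by their own values: of 14698 genes held by any of the 4 deposited tables, these 2 were selected on the difference between each inhibitor group and its DMSO control, so their levels and differences are given here as a description and carry no test. The cells were Ba/F3, a mouse pro-B cell line that normally needs interleukin 3, made to express the activated kinase JAK2-V617F, and all groups shared that background. The DMSO_treated, Ruxo_treated and CHZ_treated cells had 6 h with solvent, ruxolitinib or CHZ868 at 1 μM. Ruxolitinib is a type I inhibitor, which binds the active form of the kinase, and CHZ868 is a type II inhibitor, which binds the inactive form. The Ruxo_wash and CHZ_wash cells had 1 h with the inhibitor at 1 μM, were washed 3 times and were then kept for 6 h without it, and each had its own DMSO washout group, DMSO_wash for ruxolitinib and DMSO_wash_exp3 for CHZ868. Each of the 7 groups had 3 libraries. The labels do not say that these came from separate cultures, so the spread between them may be technical, and p-values measure that spread. It is a model in 1 transformed line, with no other cell type to receive the factors.

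Oncostatin M belongs to the interleukin 6 family of cytokines. It signals through receptors that pair the shared chain gp130 (Il6st) with the oncostatin M receptor (Osmr) or the LIF receptor (Lifr), and these use JAK kinases and STAT proteins. In blood cells the Osm gene is itself a known target of STAT5, the transcription factor that JAK2 activates. Osteopontin, the product of Spp1, is a secreted phosphoprotein of bone matrix that is also made by macrophages and other blood cells. It binds CD44 and integrins such as αvβ3, α4β1 and α5β1, and is cut by thrombin and matrix metalloproteinases.

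Osm lies at chr11:4236420-4241026 on the plus strand of GRCm38 (ENSMUSG00000058755.3, GENCODE vM21) and no annotated gene overlaps it. Spp1 lies at chr5:104435118-104441050 on the plus strand (ENSMUSG00000029304.14) and Gm42793, an unproven transcript on the same strand, lies within its first part and shares sequence with it. Reads from those 2 cannot be told apart in full. No other transcript was at least 90% alike to either gene. The region upstream of the Spp1 start was searched for motifs because the results below turn on where the 2 genes differ in their response. The same was done for Irf1, Irgm1 and Oas3, among the genes whose pattern was nearest to that of Osm. The sequences are RefSeq's 250 bases before the start (GRCm38.p6), printed 5′ to 3′ on the gene's strand with every motif match in capitals. For Osm, and for Parp14 and Oas2, which were also near it in pattern, none was at hand.
Spp1, chr5:104434861-104435110, plus strand: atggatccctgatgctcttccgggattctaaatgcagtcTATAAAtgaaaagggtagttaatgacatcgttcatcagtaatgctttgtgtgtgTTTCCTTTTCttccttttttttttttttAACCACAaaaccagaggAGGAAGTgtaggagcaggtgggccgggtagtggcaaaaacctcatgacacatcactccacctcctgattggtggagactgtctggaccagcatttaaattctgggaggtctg
Irf1, chr11:53769764-53770013, plus strand: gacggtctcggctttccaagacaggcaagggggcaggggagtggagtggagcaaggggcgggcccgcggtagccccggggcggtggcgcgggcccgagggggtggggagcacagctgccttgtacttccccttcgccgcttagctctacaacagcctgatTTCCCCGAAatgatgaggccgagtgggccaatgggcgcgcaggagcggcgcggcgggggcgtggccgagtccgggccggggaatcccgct
Irgm1, chr11:48871421-48871670, minus strand: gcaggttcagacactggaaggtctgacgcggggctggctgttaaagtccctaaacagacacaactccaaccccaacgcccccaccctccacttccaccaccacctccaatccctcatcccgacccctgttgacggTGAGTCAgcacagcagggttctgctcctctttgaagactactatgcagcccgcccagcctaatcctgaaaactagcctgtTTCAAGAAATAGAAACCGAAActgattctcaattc
Oas3, chr5:120777660-120777909, minus strand: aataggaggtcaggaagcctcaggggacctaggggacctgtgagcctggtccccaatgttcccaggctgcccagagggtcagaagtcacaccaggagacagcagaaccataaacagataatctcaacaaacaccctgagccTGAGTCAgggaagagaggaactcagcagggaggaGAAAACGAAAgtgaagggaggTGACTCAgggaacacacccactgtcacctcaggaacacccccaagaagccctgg

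The letters searched, on both strands, were TTCNNGAA, TTCNNNGAA and the same with 4 bases between TTC and GAA for STAT proteins, GAAA repeated after any 2 bases for interferon-regulatory factors, AACCACA for RUNX, TGANTCA for AP-1, CACGTG for the E-box, AGGAAGT for ETS factors and TATAAA for the TATA box. Positions are counted back from the base just before the start, which is -1. The Spp1 sequence held TATAAA at -211 to -206, the reverse of the interferon-regulatory motif at -157 to -148, AACCACA at -129 to -123 and AGGAAGT at -112 to -106. Of 32851 promoter sequences cut to the same length, 12.4% held the TATA motif, 2.98% the interferon-regulatory motif, 4.40% the RUNX motif and 7.69% the ETS motif. None of the STAT letters was in this Spp1 window, nor in that of its second start, which held no match to any motif searched. The printed Irf1 window held TTCCCCGAA at -90 to -82, a motif found in 7.02% of promoters. The window of the second Irf1 start, not printed, held AGGAAGT at -130 to -124 and none of the STAT letters. The Irgm1 window held TTCAAGAA at -35 to -28, a motif found in 7.17% of promoters, which overlaps the first of its 2 interferon-regulatory matches (-30 to -21 and -24 to -15), and these overlap each other. It also held TGAGTCA at -115 to -109. Oas3 had 1 interferon-regulatory match at -75 to -66 and AP-1 matches at -109 to -103 and -54 to -48, and 6.75% of promoters held the AP-1 motif. The STAT motif with 4 bases between was in 5.85% of promoters and CACGTG in 6.02%, and neither was in these 4 windows. Windows of Lif and of Usp45, Txlng, Gcsh, Dmtf1 and Ascc3, nearest to Spp1 in pattern, were also searched and are not printed. Their only matches were TGACTCA at -228 to -222 in Lif and at -221 to -215 in Ascc3.

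The values are deposited log2 CPM, counts scaled to a common library size, with a small constant added. In 15 libraries the values could be taken back to whole reads, with 7880000 to 10670000 reads on listed genes. The depth of the 6 Ruxo_wash and DMSO_wash libraries is unknown. Their table stood apart from the others: the median gene differed by 0.93 log2 units between DMSO_wash and DMSO_treated, against 0.35 between DMSO_wash_exp3 and DMSO_treated, after each library was centred on its median. Csf2rb2, a chain of the interleukin 3 receptor, was at 5.72 ± 0.05 log2 CPM in DMSO_wash and at 10.53 ± 0.04 in DMSO_treated (SD, n = 3). Of 11 pro-B and Ba/F3 markers, 6 were held by every table (Il3ra, Csf2rb, Csf2rb2, Ptprc, Cd79a and Cd79b), and Pax5, Ebf1, Vpreb1, Igll1 and Cd24a were not analysed here. In CHZ_treated cells 1 of the 6 passed as higher and 3 as lower, near the 53.2% of all genes called there. In the washouts 0 of 6 passed, with 1 (Ptprc, higher, named after its value was seen) in CHZ_wash without DMSO_wash_exp3 replicate 3. At an unadjusted p under 0.05 stood 3 after ruxolitinib and 0 after CHZ868, beside 920 of 13085 and 2767 of 11355 genes. Of other cell types, 1 of 6 mast cell markers (Gata2), 0 of 5 T cell markers and at most 1 of 4 fibroblast markers were held, and none of them passed in any table. Ruxo_treated replicate 2 and DMSO_wash_exp3 replicate 3 also stood apart: their variance against the other replicates was 27.4 to 30.3 and 22.9 to 37.8 times sampling noise, and the remaining pair of each group was at 4.40 and 5.69 times. Values that rest on Ruxo_treated replicate 2 or DMSO_wash_exp3 replicate 3 are also given without it for Osm and Spp1 and for the main partner results.

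Osm was lower with either drug present. In DMSO_treated cells it was at 4.61, 5.07 and 4.34 log2 CPM, from 212, 341 and 190 reads. In CHZ_treated cells it was at 2.10, 2.02 and 2.51 log2 CPM, from 41, 29 and 44 reads. Every CHZ_treated library lay below every DMSO_treated library. The difference was -2.46 ± 0.26 (SE, n = 3 against 3), and the mean CPM was 0.173 times the control. In this comparison 59.7% of 11670 genes had groups that did not overlap and 53.2% passed an adjusted p under 0.05, so the lack of overlap by itself did not set Osm apart, and as the contrast was used to choose the gene nothing is read from it. By size, 67 genes had a lower difference.

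With ruxolitinib for 6 h, Osm was at 2.42, 2.13 and 2.56 log2 CPM, from 50, 41 and 54 reads. These libraries are in a table normalized apart from their control, so the median over 11624 shared genes was taken off every library, after which the Ruxo_treated values were 2.14 to 2.53 and the DMSO_treated values 4.36 to 5.08. The groups did not overlap. The centred difference was -2.33 ± 0.24, and -2.22 without Ruxo_treated replicate 2. In that comparison 44.6% of genes had groups that did not overlap and 3.12% also differed by at least 1 log2 unit, 2.83% lower and 0.292% higher. Both 6 h comparisons use the same 3 control libraries, so their likeness is in part shared. The mean CPM ratios were 0.173 for CHZ868 and 0.193 for ruxolitinib, the latter from the deposited values of the 2 tables without centring.

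After washout, Osm stood within its control. Ruxo_wash libraries were at 2.74, 2.64 and 2.75 log2 CPM and DMSO_wash libraries at 2.80, 2.72 and 2.67. The groups overlapped, with a difference of -0.02 ± 0.05. CHZ_wash libraries were at 4.12, 4.26 and 4.21 and DMSO_wash_exp3 libraries at 4.28, 3.69 and 3.63. All CHZ_wash libraries lay below the first control and above the other two, and the difference was 0.33 ± 0.21. It was 0.53 without DMSO_wash_exp3 replicate 1, when the groups no longer overlapped, and 0.21 without replicate 3. In the tables of the washout experiments 12.9% (ruxolitinib) and 31.0% (CHZ868) of genes had groups that did not overlap.

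**Figure D1:**
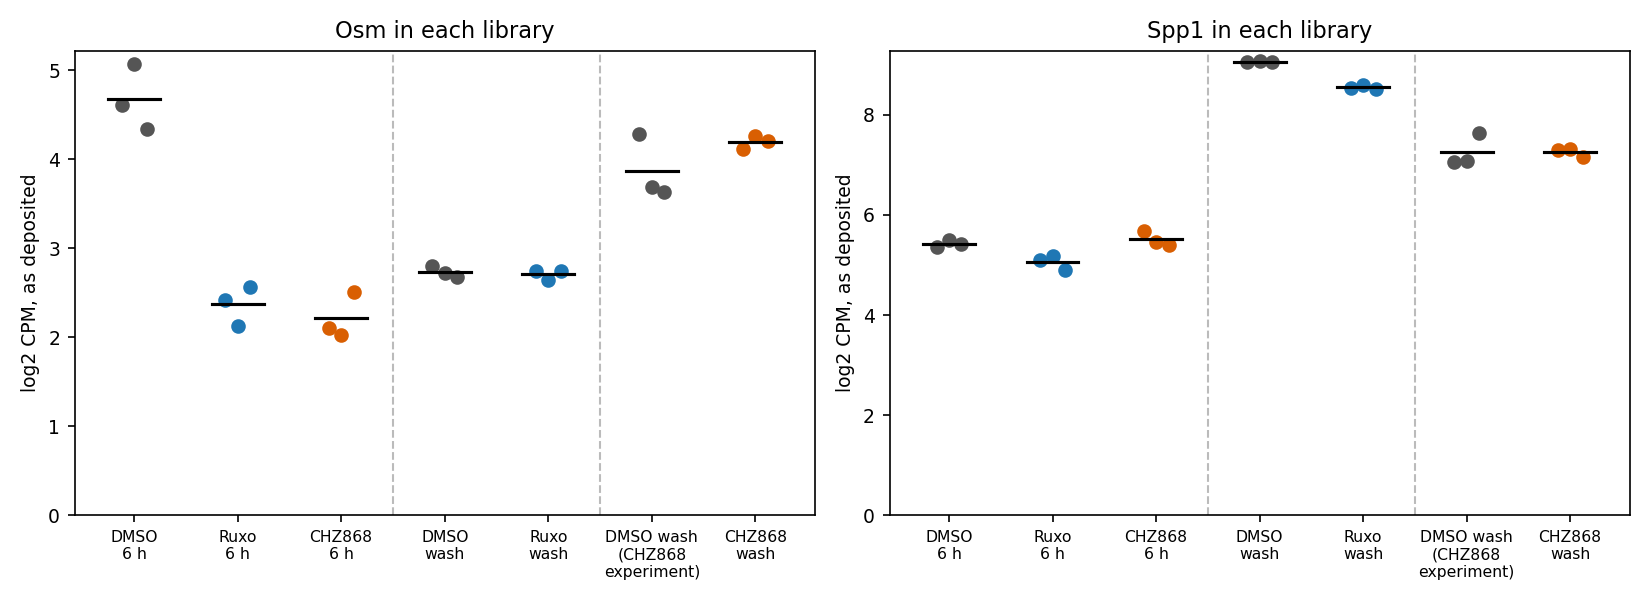
Deposited log2 CPM of Osm (left) and Spp1 (right) in each of the 21 libraries (points), with the group mean (line). Dashed lines separate experiments, and levels are comparable only within an experiment. Ruxo_treated libraries were normalized apart from their control and are shown here without centring. Osm is below its control in both 6 h inhibitor groups, and Spp1 is below its control in Ruxo_wash, where the libraries lie from 8.52 to 8.60 against 9.04 to 9.07.

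Spp1 behaved otherwise. In DMSO_treated cells it was at 5.36, 5.49 and 5.42 log2 CPM, from 356, 458 and 402 reads. In CHZ_treated cells it was at 5.68, 5.46 and 5.41, from 513, 331 and 339 reads. The groups overlapped and the difference was 0.09 ± 0.09. In Ruxo_treated cells it was at 5.09, 5.18 and 4.90, from 331, 355 and 280 reads. After centring these libraries were at 4.86 to 5.19 against 5.37 to 5.50 in the control, with no overlap. The difference was -0.39 ± 0.10, and -0.46 without Ruxo_treated replicate 2, and 1589 of 11624 genes had a lower one. Set against their shared control mean, the Ruxo_treated libraries were at -0.57 to -0.25 and the CHZ_treated libraries at -0.01 to 0.25, at the same dose and time. Whether the inhibitors differ in Spp1 was not tested, as their libraries are in tables normalized apart.

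Spp1 was lower after ruxolitinib had been washed out. Ruxo_wash libraries were at 8.53, 8.60 and 8.52 log2 CPM and DMSO_wash libraries at 9.05, 9.07 and 9.04. All inhibitor libraries lay below all controls, with a spread of 0.05 (SD) in Ruxo_wash and 0.01 in DMSO_wash. The difference was -0.50 ± 0.03, or 0.705 times the control in CPM, and 768 of 13085 genes had a lower one. By limma-trend with Benjamini-Hochberg adjustment 3 genes of that table passed (0.0229%), and 0 with a replicate block and 0 to 1 with any 1 library left out. Among the genes that passed were Anxa5 (-0.48) and Hba-a1 (-0.21), named after their values were seen. Spp1 was chosen on this contrast, so no test of it is given and nothing is read from its place. The macrophage and osteoclast markers held by this table (Adgre1, Csf1r, Lyz2, Cd68 and Itgam, 5 of 8) summed to 52.6 to 55.7 CPM in Ruxo_wash and to 56.0 to 66.3 in DMSO_wash. The sum was lower in the same direction as Spp1, although 0 of the 5 passed and Lyz2 was at 0.11 with overlap. At an unadjusted p under 0.05 stood 1 of the 5, beside 920 of 13085 genes. The part of these markers in the Spp1 result was not tested. In the 6 h tables only Csf1r and Cd68 of that list were held, with sums of 12.4 to 18.8 CPM in CHZ_treated libraries and 15.2 to 19.3 in the control. Csf1r passed as lower there (-1.18, adjusted p = 0.00578), and Cd68 was at 0.47 (adjusted p = 0.054), above all controls. Mrc1, Cd14 and Ctsk were not analysed here. In bulk RNA, fewer cells of a kind and less RNA per cell cannot be told apart.

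After CHZ868 washout, Spp1 was at 7.29, 7.32 and 7.15 log2 CPM against 7.06, 7.08 and 7.64. The groups overlapped through DMSO_wash_exp3 replicate 3 alone, one of the libraries that stood apart. The difference was -0.01 ± 0.20 with it and 0.18 without it, when every CHZ_wash library lay above both remaining controls.

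**Figure D2:**
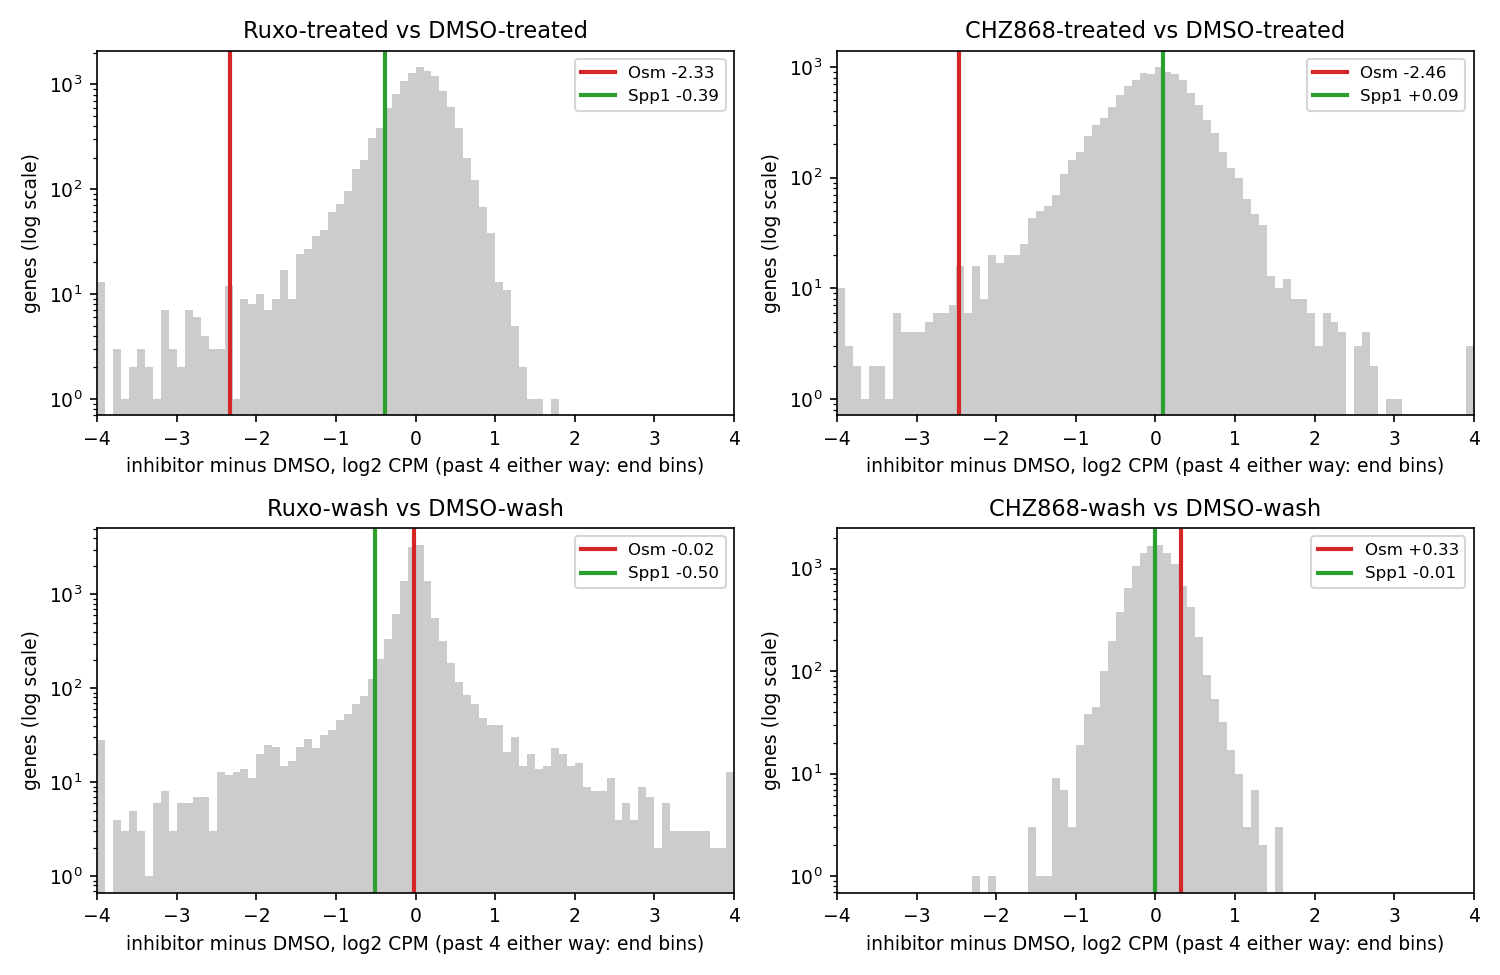
Difference between inhibitor and DMSO means (log2 CPM, x axis) of all genes in each comparison (grey, number of genes on a log scale), with Osm in red and Spp1 in green; differences past 4 are in the end bins. Osm is far into the lower tail with either inhibitor present (-2.33 and -2.46) and Spp1 is at -0.50 after ruxolitinib washout.

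The members also differed in where they were high among the controls. In DMSO_treated cells Osm was at -0.83 ± 0.36 log2 units from the library median of the 9973 genes held by all tables, in DMSO_wash_exp3 at -1.59 ± 0.36 (-1.47 without replicate 3) and in DMSO_wash at -2.11 ± 0.07. Spp1 had the reverse order: it was at -0.08 ± 0.06 in DMSO_treated, 1.80 ± 0.32 in DMSO_wash_exp3 (1.62 without replicate 3) and 4.21 ± 0.02 in DMSO_wash. Between DMSO_treated and DMSO_wash_exp3, the Spp1 level differed by 1.88 log2 units, and 0.481% of genes differed by as much either way (1.70 and 0.912% without replicate 3). Between DMSO_treated and DMSO_wash it differed by 4.29, and 1.16% of genes did. For Osm the same steps were -0.76 and -1.29, as large as those of 15.7% and 35.4% of genes. Washing, the shorter exposure, the experiment and the normalization cannot be told apart in these steps, since the tables were normalized separately and no group joins them. Per kilobase of the longest annotated transcript (2272 bases for Osm, 1507 for Spp1), the Spp1 level was 2.48 times the Osm level in DMSO_treated, 10.0 times in Ruxo_treated and 15.5 times in CHZ_treated. It was 123 times in DMSO_wash and 87.7 times in Ruxo_wash, and 15.9 times in DMSO_wash_exp3 and 12.7 times in CHZ_wash.

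**Figure D3:**
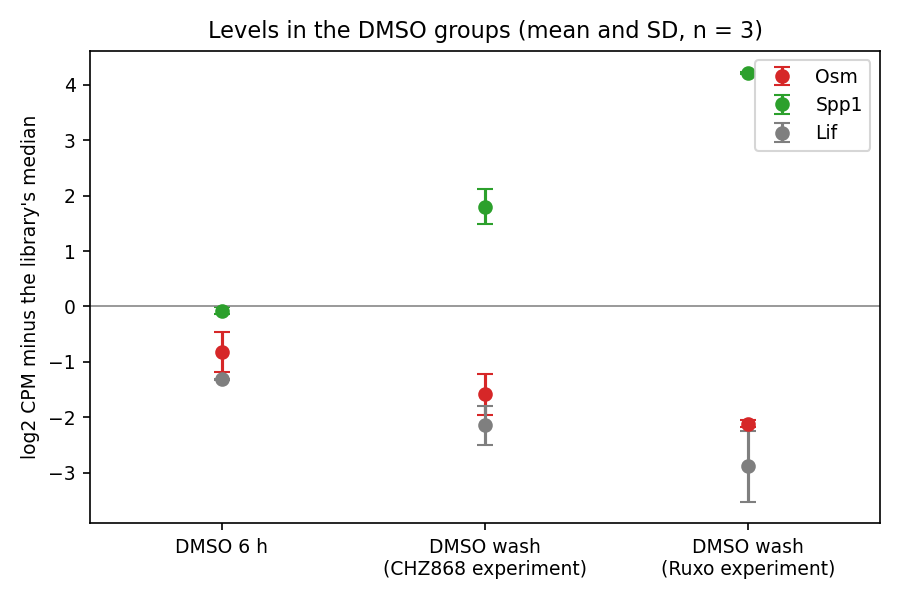
Level of Osm, Spp1 and Lif in the DMSO groups as log2 CPM minus the library median of genes held by all tables (mean and SD, n = 3). From the 6 h group to the ruxolitinib washout group, Spp1 goes from -0.08 to 4.21 while Osm goes from -0.83 to -2.11.

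The cytokine next to Osm on the chromosome, Lif, is of the same family and lies 16531 bases downstream. Lif was at 4.19, 4.18 and 4.18 log2 CPM in DMSO_treated and at 2.32, 2.40 and 2.82 in CHZ_treated libraries. It fell by 1.67 ± 0.20 on the log2 scale (SE, limma-trend, adjusted p = 5.31e-06), beside 26.4% of genes that passed as lower and 26.8% as higher. With ruxolitinib for 6 h, Lif differed from its control by -1.26 with no overlap, and by -1.34 without Ruxo_treated replicate 2. In the washouts the Lif differences were -0.74 (Ruxo_wash, adjusted p = 0.840) and -0.09 (CHZ_wash, adjusted p = 0.825, or -0.14 without DMSO_wash_exp3 replicate 3), both with overlap. On the other side the nearest coding gene held by the tables, Tbc1d10a, a GTPase-activating protein, fell in CHZ_treated cells by 0.76 ± 0.23 (adjusted p = 0.0110), which was lost under quantile normalization (adjusted p = 0.0545) or without DMSO_treated replicate 3 (0.0622). Of the Spp1 neighbours, the bone matrix genes Mepe, Ibsp, Dmp1 and Dspp, its relatives of the SIBLING family, were not analysed here. The nearest held were Nudt9, with a difference of 0.11 in CHZ_treated (adjusted p = 0.452), and BC005561, at -0.21 in Ruxo_wash (adjusted p = 0.792).

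The receptor chains of oncostatin M, Osmr, Lifr and Il6st, were not analysed here. Of 7 receptor genes of the family 2 were held, Il27ra and Il11ra1, and both passed as lower in CHZ_treated cells, as did 26.4% of all genes, with differences of -0.62 ± 0.15 (adjusted p = 0.00263) and -1.04 ± 0.36 (adjusted p = 0.0231). The Il11ra1 call was lost under quantile normalization (0.108) and without any 1 of DMSO_treated replicates 1, 2 and 3 (0.0671, 0.0908 and 0.0557) or CHZ_treated replicate 2 (0.0852). Of the other family ligands 3 of 9 were held in that table. Besides Lif, Ebi3, a subunit of interleukins 27 and 35, passed as higher by 1.05 ± 0.31 (adjusted p = 0.00958), but not without DMSO_treated replicate 3 (0.0562), and Il6 was at 0.21 (adjusted p = 0.619).

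Below the receptor, all 12 JAK, STAT, adaptor and feedback genes of the list were held. In CHZ_treated cells 3 passed as higher and 4 as lower, close to the 53.2% of all genes called, with a list median of 0.03 against -0.01 over all genes. Lowest were the feedback inhibitors Socs1 (-5.20 ± 0.37, adjusted p = 2.36e-08) and Socs3 (-1.47 ± 0.27, adjusted p = 0.000302). Socs1 was near the floor in CHZ_treated libraries, at -0.48, 0.02 and -1.53 log2 CPM. The size of its fall therefore depends on the added constant, and ranged from -5.20 to -4.06 under other settings. Stat3, which oncostatin M uses, fell by 0.35 ± 0.06 (adjusted p = 0.000168), while Stat5a, which JAK2 activates, rose by 0.32 ± 0.06 (adjusted p = 0.000709). With ruxolitinib for 6 h, Socs1 and Socs3 were the 2 that lay at least 1 log2 unit lower without overlap, and Stat5a lay 0.50 above its control. Without Ruxo_treated replicate 2 these 3 were at -4.25, -1.15 and 0.38. In the washouts 0 of 12 passed by limma-trend in either table. At an unadjusted p under 0.05 stood 2 after ruxolitinib and 1 after CHZ868, beside 920 of 13085 and 2767 of 11355 genes. Without DMSO_wash_exp3 replicate 3 the adaptor Grb2, named after its value was seen, passed as lower in CHZ_wash.

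Other known STAT5 targets were lower while the drugs were present. Of 12 on the list 9 were held, and 8 passed as lower in CHZ_treated cells and 0 as higher, beside 26.4% and 26.8% of all genes, with a list median of -1.39 against -0.01 over all genes. The survival kinase genes Pim1 (-3.20 ± 0.08, adjusted p = 2.59e-13) and Pim2 (-2.56 ± 0.17, adjusted p = 1.09e-08), the differentiation inhibitor Id1 (-2.24 ± 0.12, adjusted p = 1.36e-09) and the survival gene Bcl2l1 (-1.69 ± 0.18, adjusted p = 1.57e-06) fell most. With ruxolitinib 6 of the 9 were at least 1 log2 unit lower without overlap, beside 2.83% of all genes, and the median was -1.32 against 0.04. Without Ruxo_treated replicate 2 there were also 6, with a median of -1.32 against 0.03. The list was drawn up with results on these samples known, so it is not independent evidence of a direction. In the washouts 0 of 9 passed by limma-trend, and 0 passed without the mean-variance trend. At an unadjusted p under 0.05 stood 4 after ruxolitinib and 1 after CHZ868, beside 920 of 13085 and 2767 of 11355 genes. The 4 were Pim1, Pim2, Id1 and Bcl2l1, all above every control.

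Of 11 osteopontin receptor chains 6 were held, and in CHZ_treated cells 3 passed as higher and 1 as lower, near the 53.2% of all genes called, with the 6 summing to 2373 to 2538 CPM against 1728 to 1773 in the control. Itga4, the α4 chain, rose by 0.77 ± 0.05 (adjusted p = 1.96e-08), the β1 chain Itgb1 by 0.26 ± 0.06 (adjusted p = 0.00192) and Cd44 by 0.20 ± 0.06 (adjusted p = 0.010), while the α5 chain Itga5 fell by 0.30 ± 0.07 (adjusted p = 0.00155). The calls of Itgb1 and Cd44 were lost under quantile normalization (adjusted p = 0.0536 and 0.153), and that of Cd44 also without the trend (0.0523). The αv chain Itgav and the β3 chain Itgb3 were at 0.15 (adjusted p = 0.169) and -0.07 (adjusted p = 0.479). With ruxolitinib for 6 h, Itga4 lay 0.71 and Itgb3 0.45 log2 units above the control, and Itga5 was on the other side, 0.41 above it, all with no overlap. Without Ruxo_treated replicate 2 these were 0.53, 0.50 and 0.52. In the washouts 0 of 6 passed. At an unadjusted p under 0.05 stood 1 in each, beside 920 of 13085 genes after ruxolitinib and 2767 of 11355 after CHZ868. Itgb3 was at 0.33 in CHZ_wash (adjusted p = 0.0852, or 0.26 and 0.0704 without DMSO_wash_exp3 replicate 3) and Itga5 at -0.24 in Ruxo_wash (adjusted p = 0.586).

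**Figure D4:**
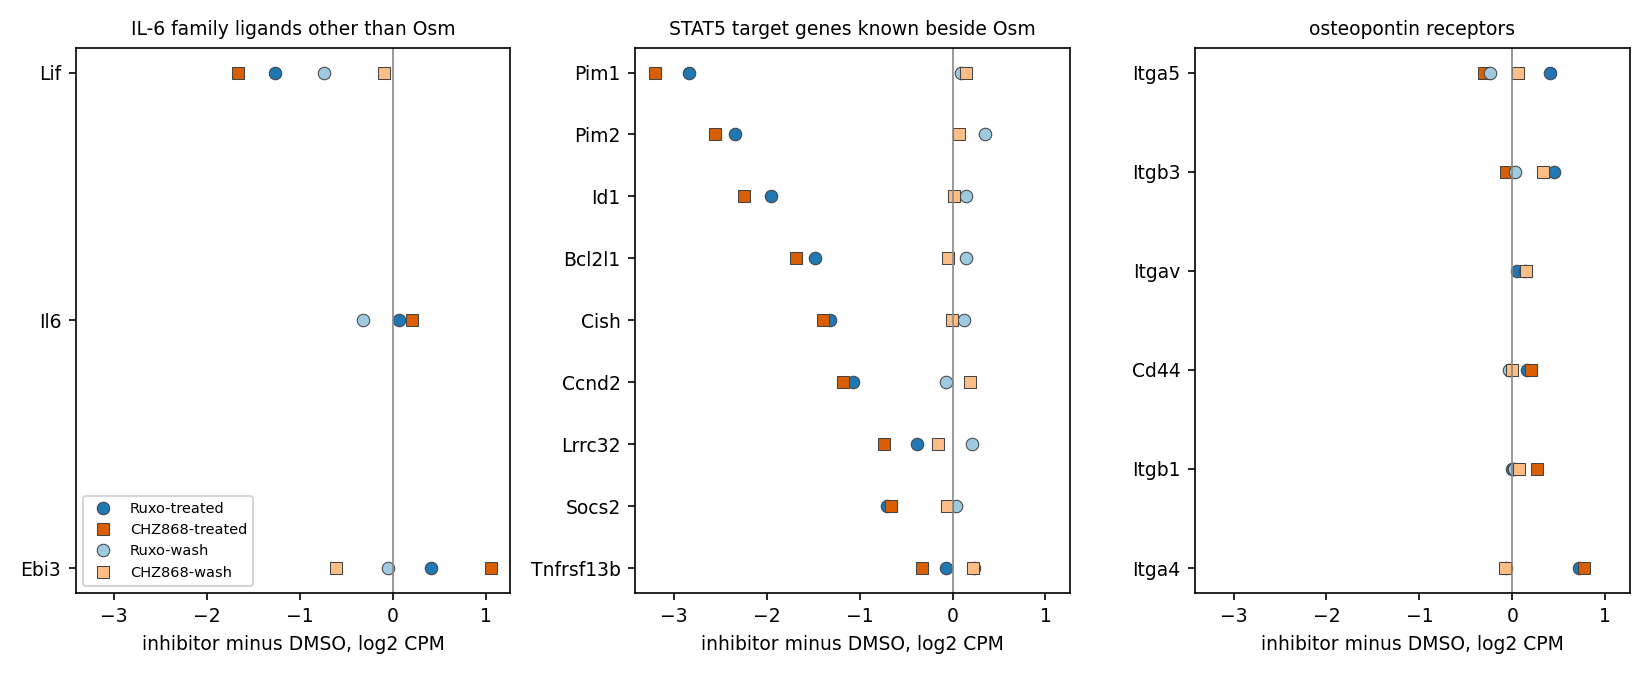
Difference between inhibitor and DMSO means (log2 CPM) of interleukin 6 family ligands, STAT5 targets and osteopontin receptors held by the table of CHZ_treated cells, in the 4 comparisons (colours and shapes). The STAT5 targets lie left of 0 in the 6 h comparisons, down to Pim1 at -3.20, while the receptors stay between -0.30 and 0.77.

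Of the enzymes that cut or modify osteopontin 2 were held at 6 h. The crosslinking enzyme Tgm2 fell in CHZ_treated cells by 0.67 ± 0.06 (adjusted p = 2.66e-07) and the glycosylating enzyme Galnt3 by 1.01 ± 0.21 (adjusted p = 0.000864). Of all genes 26.4% passed as lower there. With ruxolitinib for 6 h they were at -0.52 and -0.96 without overlap, as were 44.6% of genes either way. Without Ruxo_treated replicate 2 they were at -0.47 and -1.20. In each washout 3 were held and 0 passed. At an unadjusted p under 0.05 stood 1 after ruxolitinib (Tgm2, 0.16, above every control) and 0 after CHZ868, beside 920 of 13085 and 2767 of 11355 genes. Of the transcription factors described at the Spp1 promoter 14 of 16 were held, and in CHZ_treated cells 6 passed as higher and 3 as lower, near the 53.2% of all genes called. Myb rose by 0.80 ± 0.05 (adjusted p = 1.12e-08) and the ETS factor Spi1 (PU.1) by 0.75 ± 0.09 (adjusted p = 4.94e-06), while Usf1 fell by 0.92 ± 0.11 (adjusted p = 4.24e-06) and Fos by 0.87 ± 0.22 (adjusted p = 0.00411). In Ruxo_wash, where Spp1 was lower, 0 of 14 passed by limma-trend, with 1 at an unadjusted p under 0.05, beside 920 of 13085 genes. In CHZ_wash, Runx3 (-0.61 ± 0.13, adjusted p = 0.0408) and Spi1 (-0.57 ± 0.14, adjusted p = 0.0459) passed as lower, beside 2.07% of all genes. Both calls were lost without the mean-variance trend (adjusted p = 0.105 and 0.119) and in 4 of 6 fits with 1 library left out. Without DMSO_wash_exp3 replicate 3 they were at -0.46 and -0.41, with adjusted p = 0.00687 and 0.0122.

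Other secreted factors were few. Of 47 cytokines and growth factors 17 were held at 6 h, and in CHZ_treated cells 3 passed as higher and 5 as lower, near the 53.2% of all genes called. Among those lower were the death ligand Tnfsf10 (TRAIL, -2.53 ± 0.24, adjusted p = 4.41e-07), the macrophage growth factor Csf1 (-1.86 ± 0.29, adjusted p = 7.81e-05), the growth factor Flt3l (-1.0 ± 0.11, adjusted p = 1.81e-06) and Il16 (-0.73 ± 0.20, adjusted p = 0.00641). Tnfsf10 and Csf1 were also the 2 that lay at least 1 log2 unit lower with ruxolitinib, at -2.83 and -1.64 without Ruxo_treated replicate 2, when Cxcl10, named after its value was seen, was a further one. In CHZ_wash, where 4.02% of genes passed (1.96% higher, 2.07% lower), Lgals1 passed as higher (0.45 ± 0.10, adjusted p = 0.0410) and Tgfb1 (-0.73 ± 0.11, adjusted p = 0.0202) and Vegfb (-0.87 ± 0.13, adjusted p = 0.0214) as lower. All 5 listed genes called in CHZ_wash, Runx3 and Spi1 included, were lost without the mean-variance trend, where 0 of 11355 genes passed and 2562 had an unadjusted p under 0.05, and without any 1 of CHZ_wash replicates 1, 2 and 3 or DMSO_wash_exp3 replicate 1. Without DMSO_wash_exp3 replicate 3 Lgals1, Tgfb1 and Vegfb were at 0.38, -0.60 and -0.80 and still passed, where 1426 genes did. Flt3l also passed in that fit, as higher (0.37, adjusted p = 0.0422). In Ruxo_wash 0 of 20 passed, with 2 at an unadjusted p under 0.05, beside 920 of 13085 genes.

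Across the 12 inhibitor libraries, each set against its own DMSO mean, the genes with the pattern nearest to Osm were Parp14, Irgm1, Irf1, Oas2 and Oas3, all known as interferon-response genes. Their root mean square differences from Osm were 0.163, 0.177, 0.222, 0.231 and 0.246 log2 units, against a median of 1.74 over 9973 genes. In Ruxo_treated cells their differences were from -2.49 to -2.17 and in CHZ_treated cells from -2.79 to -2.40. Parp14, an ADP-ribosyltransferase, was at 8.10, 8.07 and 8.11 log2 CPM in DMSO_treated and at 5.75, 5.49 and 5.74 in CHZ_treated libraries. Nearest to Spp1 were Usp45, Txlng, Gcsh, Dmtf1 and Ascc3, at 0.128, 0.150, 0.153, 0.189 and 0.190 log2 units, where the median gene was at 0.469. All 5 lay lower in Ruxo_wash, from -0.26 (Dmtf1) to -0.61 (Txlng), with Usp45 overlapping its control and none passing the adjusted test. Over all genes 12.9% had groups that did not overlap there. Without Ruxo_treated replicate 2 and DMSO_wash_exp3 replicate 3, 4 of the 5 nearest genes were shared for each member, with Gm36043 in place of Oas3 and Med13 in place of Gcsh. The Osm and Spp1 patterns were 1.65 log2 units from each other. These are likenesses across libraries that share controls and a table, and no p is attached to them. The genes were picked on these same values, so their differences here follow from the choice and are a description.

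**Figure D5:**
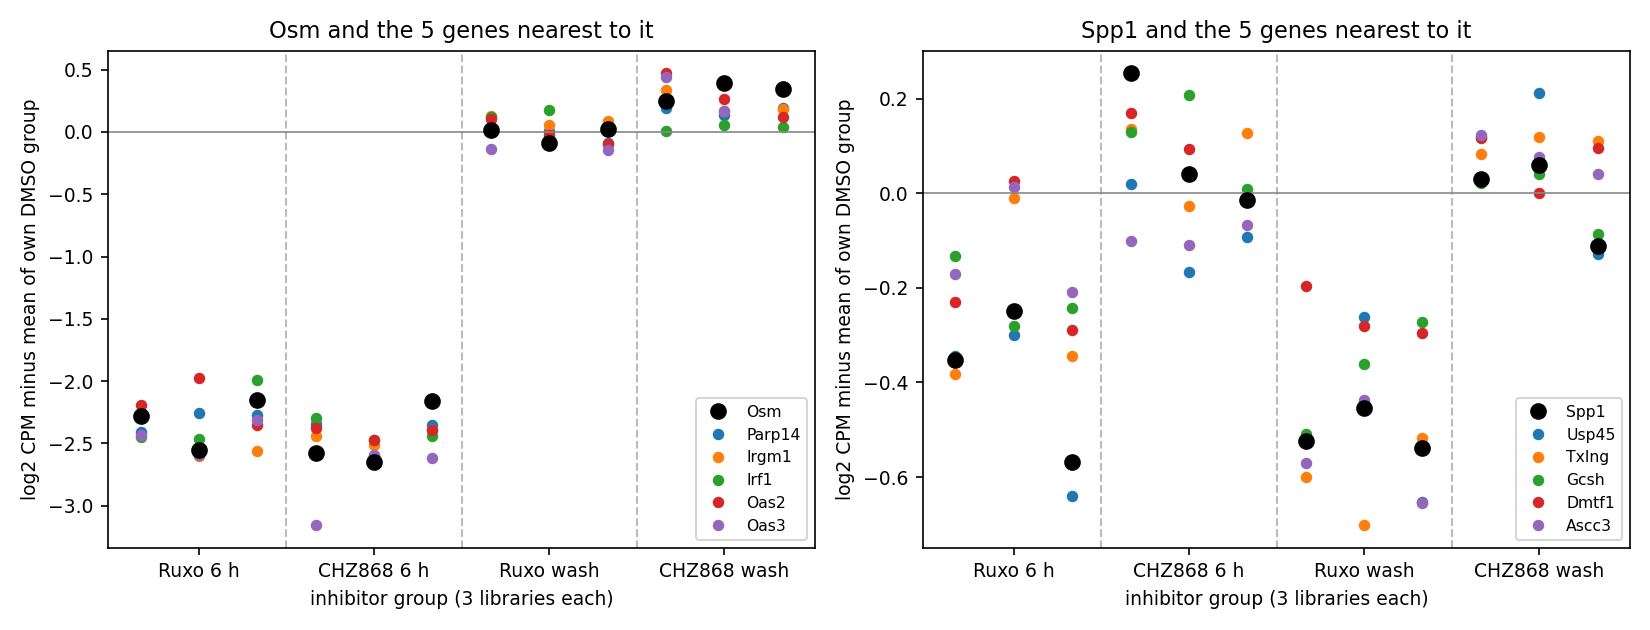
Log2 CPM minus the mean of the own DMSO group in the 12 inhibitor libraries, for Osm (left, black) and Spp1 (right, black) and the 5 genes with the smallest root mean square difference from each (colours). The Osm means are -2.33 and -2.46 in the 6 h treatments and -0.02 and 0.33 after washout, while Spp1 has its lowest mean, -0.50, after ruxolitinib washout.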

How the data were processed

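The authors sequenced RNA from Ba/F3 JAK2-V617F cells. The study's methods name kallisto on GRCm38 transcripts, biomaRt, edgeR with TMM and voom with limma, whereas the submitters' processing notes list STAR 2.7.3a, GRCm39 and edgeR 4.0.16. Each deposited table holds log2 CPM, to which a small constant was added, after a filter on low expression. Strand use in counting is not given in the sources used here. Taking the constant off gave whole reads (within 0.1 read) in 3 of 4 tables, 7880000 to 10670000 per library on listed genes. The Ruxo_wash table gave none, so its depth is unknown. The table of Ruxo_treated libraries was scaled with libraries it does not hold. Replicate numbers came from the labels.

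Comparisons within a table used limma-trend (limma 3.58.1, R 4.3.3) with p-values adjusted by Benjamini-Hochberg across the whole table and called under 0.05. Ruxo_treated and DMSO_treated libraries were centred on their median over shared genes and not tested. CPM was recovered from the log2 values by removing the constant. The 2 members, the 9 partner lists and the 5 marker lists were chosen with earlier results of these data known. Named genes are the members, the receptor chains held, list members past the threshold (at most 4 per list and fit by size), the nearest coding neighbours held and the 5 genes nearest to each member by root mean square difference over the 12 inhibitor libraries. Of the 130 listed genes, 57 were not analysed here, and 2 further genes of the lists are not reported here. Promoters came from RefSeq (GRCm38.p6), positions from GENCODE vM21, and alike transcripts from BLAST+ 2.17.0. The fits were tested on simulated data. The alternatives were limma without the trend, median centring, quantile normalization, log2(CPM + 1), a mean log2 CPM of at least 1, a replicate block and leaving out each library. List counts under the alternatives, and likeness and DMSO levels without the libraries that stood apart, were added after the data were seen.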

Additional observations from a re-analysis of the deposited data

Results flagged for a closer look

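Neither Osm nor Spp1 had all libraries of one inhibitor group above its control and all of another below it, but 15 of the genes named beside them did, comparing the 2 schedules of 1 inhibitor or the 2 inhibitors on 1 schedule. The difference between such comparisons was not tested, and with 3 libraries a group some such pairs arise by chance. Over all genes the groups did not overlap in 44.6% (Ruxo_treated), 59.7% (CHZ_treated), 12.9% (Ruxo_wash) and 31.0% (CHZ_wash). The share of all genes with such an opposite pair was not counted, so nothing is read from the number 15. Values are inhibitor minus DMSO in log2 CPM.

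For ruxolitinib, genes lower in Ruxo_treated and higher in Ruxo_wash were Pim1 (-2.84 and 0.10), Pim2 (-2.35 and 0.35), Id1 (-1.95 and 0.14), Bcl2l1 (-1.48 and 0.15), Irgm1 (-2.49 and 0.090) and Tgm2 (-0.52 and 0.16). In the Ruxo_wash fit none of these passed by limma-trend. For CHZ868, genes lower in CHZ_treated and higher in CHZ_wash were Irgm1 (-2.45 and 0.23), Parp14 (-2.43 and 0.17), Oas2 (-2.41 and 0.28), Oas3 (-2.79 and 0.32) and Stat3 (-0.35 and 0.068). The reverse was seen for Spi1 (0.75 and -0.57), Stat5a (0.32 and -0.21) and Tgfb1 (0.31 and -0.73). In the CHZ_wash fit Irgm1, Parp14, Oas2, Oas3, Stat3 and Stat5a did not pass by limma-trend. Without DMSO_wash_exp3 replicate 3, where 1426 genes passed, Oas2 passed as higher (0.34, adjusted p = 0.0324) and the others named here did not. In the fit with all libraries Spi1 and Tgfb1 passed, and both calls were lost without the mean-variance trend. Oas3 was also at -0.13 in Ruxo_wash, and Lgals1 was at -0.19 there against 0.45 in CHZ_wash. Itga5, the α5 chain of an osteopontin receptor, was at 0.41 in Ruxo_treated, -0.30 in CHZ_treated and -0.24 in Ruxo_wash.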

How the results depend on the processing

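The 8 differences of Osm and Spp1 moved by less than their replicate spread under a change of centring, quantile normalization and log2(CPM + 1). The trend, the replicate block and the expression filter leave these differences as they are. Leaving out 1 of 3 libraries cannot move a difference past that spread. Those alternatives are therefore no check on the differences. With 1 library left out, the Osm differences ranged from -2.63 to -2.27 (CHZ_treated), -2.49 to -2.14 (Ruxo_treated), -0.05 to 0.02 (Ruxo_wash) and 0.21 to 0.53 (CHZ_wash), and those of Spp1 from 0.01 to 0.15, -0.46 to -0.30, -0.53 to -0.49 and -0.11 to 0.18. The count of genes past the threshold was less stable in the washouts. In CHZ_wash it was 457, and 0 without the mean-variance trend, and from 0 to 1426 with 1 library left out (1426 without DMSO_wash_exp3 replicate 3, 1298 without replicate 2, at most 1 without any of the other 4). In Ruxo_wash it was 3, and 9 without the trend, 0 with the replicate block and 0 to 1 with 1 library left out, each of which ended at least 2 of the 3 calls. In CHZ_treated it was 6214, from 5658 to 6233 under other settings and 5081 to 6426 with 1 library left out. In Ruxo_treated the 363 genes (34 higher, 329 lower) became 75 higher and 284 lower under quantile normalization. The replicate numbers did not pair the libraries: correlations of the deviations of same-numbered libraries lay between -0.07 and 0.05, and a replicate block gave 6192 calls in CHZ_treated and 539 in CHZ_wash. Of 39 results past the threshold among the named genes other than Osm and Spp1, 10 were lost in at least 1 other setting. With a library left out 8 were lost, under the replicate block 0, and 0 were reversed. The 39 include neighbours and the genes nearest to Osm. Each list gave at most 4 named genes per fit, the largest by size, so smaller list calls are partly left out of this count. Depth limits Osm with inhibitor present, at 29 to 54 reads per library, and limits Socs1 more, which lay near the floor.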
